A study of Mus musculus with 18 samples.

Results

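168FARN is a mouse mammary tumour cell line that does not metastasize, and its *Kmt2c* KO derivative was compared here with the WT line across all expressed genes. The members were the 6 RNA-seq libraries of the 2 genotypes, 3 WT and 3 *Kmt2c* KO, of 18 in the series, and they were chosen by the column names of the count table. The KO was a pool of cells and not a clone. It was made by transient transfection of 3 mCherry-tagged sgRNA vectors against exon 1 of *Kmt2c* with a plasmid for Cas9 and GFP, after which double-positive cells were sorted in 3 rounds and then cells that had lost both colours were collected. The columns name the WT libraries of 168FARN as control sgRNA libraries. The labels name no drug or other treatment for either group. The *Kmt2d* KO libraries of 168FARN, made in the same way with sgRNAs against *Kmt2d*, shared the fit, and the *Kmt2c* KO and WT cells of 67NR, another mammary tumour line that does not metastasize, served for the test between lines. Per the study, replicates were collections of the same cells 1 passage apart. The study removed collection times as batches for its heatmaps, while its differential tests name only genotype as a factor. The p-values given here measure the spread between collections of the same lines and pools, with 1 KO pool per gene and line. They do not measure the spread between separately made KO pools.

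KMT2C and its paralogue KMT2D are the catalytic subunits of COMPASS-like complexes that place a single methyl group on lysine 4 of histone H3, mainly at enhancers. The same complexes carry KDM6A, which removes the repressive methylation of lysine 27, and they work with the acetyltransferase P300 to keep enhancers active. Truncating mutations of both genes are frequent in breast cancer. The question behind the comparison is which genes change in a tumour cell line without metastatic capacity once *Kmt2c* is lost.

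The guides are shown because they set where *Kmt2c* was cut. Each is written 5′ to 3′ in lower case, followed by the 3 bases of the PAM in capitals as read from mm9.
sg1: tctttgcgaggccggccccgAGG
sg2: ggtgactaggatgtcgtcggAGG
sg3: ggggaagcgccatctttgcgAGG
*Kmt2c* (annotated as *Mll3*) is transcribed from the minus strand and spans 24777612 to 25004601 on chromosome 5 of mm9. All 3 guides matched exon 1. In bulk RNA, fewer cells with a transcript and less transcript per cell cannot be told apart. sg2 (chr5:25004359-25004378, minus strand) spans the end of the 5′ UTR and the start codon, and its expected cut leaves 7 coding bases upstream. sg1 (chr5:25004241-25004260, plus strand) and sg3 (chr5:25004229-25004248, plus strand) lie within the coding sequence and overlap each other, with expected cuts after 111 and 123 coding bases.

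Total counts per library lay between 28359279 and 43427382 in WT and between 32267592 and 39237689 in *Kmt2c* KO cells. Levels are given as CPM (counts scaled to library size) after TMM scaling in edgeR, and differences as log2 fold changes of KO over WT ± SE. Replicate 3 stood apart in every genotype. The first principal component of the 9 libraries of 168FARN, with 66.1% of the variance, separated replicate 3, and the second, with 11.7%, followed genotype. Replicates 1 and 2 still differed by more than counting error, with a chi-square per gene of 12.6 in WT and 114 in KO cells, so each was counted as a library of its own. The replicate number was therefore kept as a block in the fit, and calls required both an adjusted p below 0.1 in edgeR's quasi-likelihood test (Benjamini-Hochberg over all genes tested) and a change of more than 0.6 on the log2 scale. *Rn45s*, a ribosomal RNA precursor, took 4.96% of the counts of KO replicate 1 and 0.458 to 1.32% of the other 5 libraries. Both chi-square values include *Rn45s*, so the larger value in KO cells is not a measure of the spread over all genes.

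Markers of cell type were checked in both genotypes, and most defining epithelial markers were absent. Of the defining epithelial genes, *Epcam*, *Krt5*, *Cldn3* and *Cldn7* had 0 counts in all 6 libraries, and *Cdh1* stayed at or under 0.03 CPM, whereas *Krt8*, a simple-epithelial keratin, was at 123, 124 and 389.8 CPM in WT and 97.8, 105 and 286 CPM in KO replicates 1 to 3. *Vim*, the mesenchymal intermediate filament protein vimentin, was at 6272, 5685 and 6282 CPM in WT and 8279, 7765 and 7817 CPM in KO cells. The 28 listed epithelial markers summed to 127 to 394 CPM in WT and 102 to 289 CPM in KO cells, and the 24 mesenchymal markers to 12006 to 12152 and 14000.3 to 15512 CPM. Of the 21 immune cell markers, 8 had 0 counts in all 6 libraries, among them *Cd3e*, and *Ptprc* stayed at or under 0.03 CPM. The list summed to 22.3 to 106 CPM in WT and 20.5 to 103 CPM in KO cells, and of its 6 tested members 0 were called higher and 2 lower, against 3.66% and 3.57% of all tested genes. *Cd74*, the invariant chain of MHC class II, fell from 7.89, 8.58 and 0.302 to 1.98, 1.79 and 0.0267 CPM (-2.17 ± 0.29, adjusted p = 0.000839). *Lyz2*, the lysozyme of myeloid cells, fell from 1.62, 1.82 and 1.42 to 0.65, 0.57 and 0.827 CPM (-1.25 ± 0.35, adjusted p = 0.0403), a call lost without any of replicates 1 and 2 of either genotype (adjusted p from 0.125 to 0.246). The part of such markers in the results below was not tested.

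*Kmt2c* mRNA was at 113, 106 and 44.7 CPM in WT and 96.7, 89.1 and 46.9 CPM in KO replicates 1 to 3. The groups overlapped, and the transcript did not pass the test (log2 fold change -0.14 ± 0.13, adjusted p = 0.554). Cuts in exon 1 need not lower a gene's read count, so this level does not check the knockout at the protein. Per the study, sequencing of the targeted region gave mostly but not only mutant *Kmt2c* reads in these KO cells. Its immunoblots showed reduced KMT2C protein. *Kmt2d* (0.16 ± 0.12, adjusted p = 0.439) and *Kdm6a* (-0.04 ± 0.13, adjusted p = 0.878) did not pass either. Of the 17 KMT2 and COMPASS subunits tested, 0 were called, against 7.23% of all tested genes. Their log2 fold changes in edgeR ran from -0.23 to 0.20. The count of such subunits was 1 at an unadjusted p under 0.05, 0 in DESeq2.

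Loss of *Kmt2c* was accompanied by change in both directions. Of 12253 genes tested, 886 (7.23%) were called, 448 higher (3.66%) and 438 lower (3.57%) in KO than in WT cells. The median log2 fold change of the called genes was 0.94 for those higher and -1.02 for those lower, and 159 genes changed by more than 2 on the log2 scale. The called genes were mostly of low abundance, with a median of 6.38 CPM over the 6 libraries against 27.5 CPM for all genes tested. Within the replicate pairs, 858 of the 886 (96.8%) moved the same way in all 3, against 42.9% of all genes tested. The calls were made on these same pairs, so this agreement is not independent of them. Whether the called genes gather on particular chromosomes was not tested. Scaling by total counts instead of TMM called 339 genes higher and 633 lower, so the balance of the directions depends on the scaling, while the median over all genes moved from -0.01 to -0.09. Without the block only 44 genes were called, all 44 of them among the 886.

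**Figure D1:**
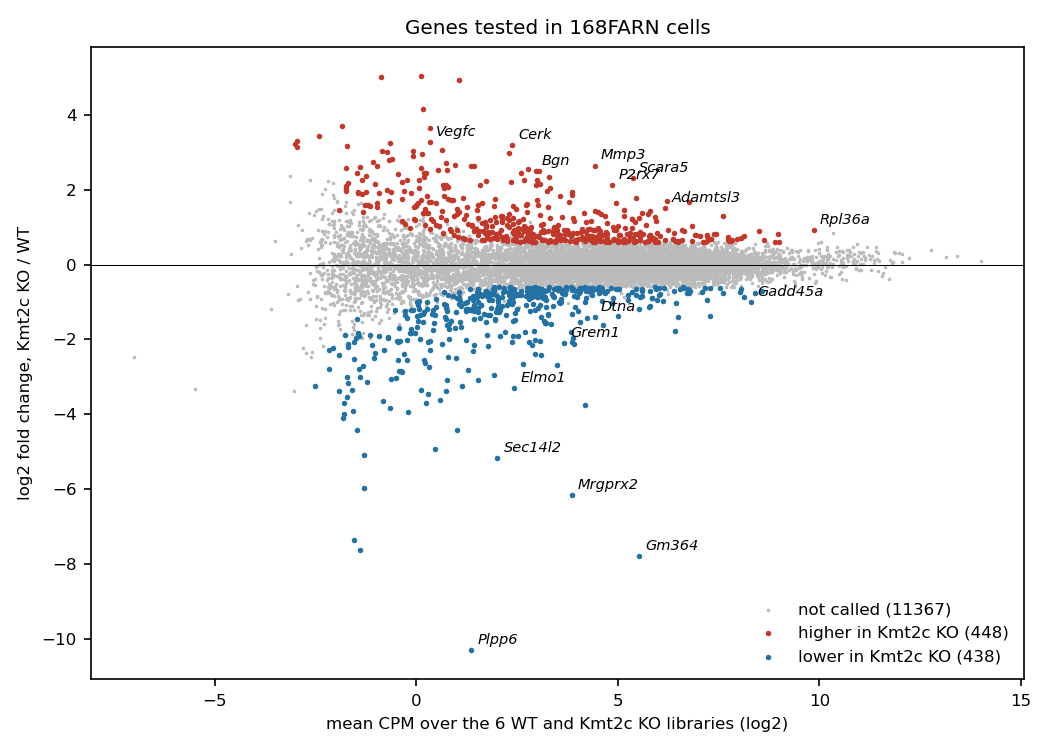
Each point is 1 of the 12253 genes tested in 168FARN cells, with the mean CPM over the 6 libraries on the x axis (log2) and the log2 fold change of *Kmt2c* KO over WT on the y axis. The 448 genes called higher (red) and 438 called lower (blue) include few of the most abundant genes, and the lowest points have fitted values that depend on the prior count where a gene has no counts in KO cells, as for *Plpp6*.

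*Mmp3*, which encodes stromelysin-1, a protease that cleaves matrix proteins and activates other matrix metalloproteinases, was among the genes with the smallest p-values. It was at 6.43, 6.79 and 4.67 CPM in WT and 38.1, 39.5 and 33.5 CPM in KO replicates 1 to 3. All KO libraries lay above all WT libraries, and replicate 3 was close to the others. The rise was 6.27-fold (log2 fold change 2.65 ± 0.16, adjusted p = 3.45e-06). *Mmp3* lies at chromosome 9 from 7445822 to 7455972 of mm9 beside other protease genes. *Mmp10*, stromelysin-2, rose from 2.25, 2.29 and 17.5 to 7.97, 10.4 and 42 CPM (1.68 ± 0.23, adjusted p = 0.0012), with replicate 3 several times above the others in both genotypes, so that WT replicate 3 exceeded KO replicates 1 and 2. *Mmp1b*, an interstitial collagenase, was at 0, 0 and 1.28 CPM in WT and 0.358, 0.492 and 4.38 CPM in KO cells (2.58 ± 0.67, adjusted p = 0.0307). The groups overlapped, since WT replicate 3 lay above KO replicates 1 and 2, and the call was lost without KO replicate 2 (adjusted p = 0.13). *Mmp13*, collagenase-3, was at 1.96, 2.35 and 0.465 CPM in WT and 2.34, 3.58 and 1.73 CPM in KO cells and was not called (0.87 ± 0.32, adjusted p = 0.104). The other 6 genes of the 10-gene cluster were too low to be tested. Of the 4 tested members 3 were thus called higher, against 3.66% of all tested genes. Per the study, *Mmp1b*, *Mmp10* and *Mmp13* rose significantly in *Kmt2c* KO cells, whereas *Mmp13* did not pass here. The RNA-seq values of *Mmp3* in the study come from these same samples.

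The promoters of these 4 genes are shown for a feature they share, the AP-1 motif TGANTCA (searched on both strands, which read the same), given in capitals within 27 bases of RefSeq sequence (GRCm38.p6) on the strand of the gene.
*Mmp3*: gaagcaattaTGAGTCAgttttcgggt
*Mmp10*: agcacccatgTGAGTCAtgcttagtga
*Mmp1b*: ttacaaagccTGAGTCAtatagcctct
*Mmp13*: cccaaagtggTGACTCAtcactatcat
The motif begins 46 bases before the listed start of *Mmp3*, 63 before that of *Mmp10*, 93 before that of *Mmp1b* and 35 before that of *Mmp13*, which was not called. The promoters of *Cerk* and *Pdzrn3*, searched alike, had 0 matches. In windows of 300 bases, 250 before and 50 after the start, 2144 of 27025 promoters (7.93%) hold it. Among genes tested here with a listed promoter the share was 5.2%, and it was 8.01% of those called higher and 8.59% of those called lower. The AP-1 subunits *Jun* (0.04 ± 0.12, adjusted p = 0.886) and *Fosl1* (-0.09 ± 0.14, adjusted p = 0.742) did not pass the test.

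Of the other genes that the study names for these cells, *Cerk*, *Scara5* and *Pdzrn3* also rose. *Cerk*, ceramide kinase, was at 1.36, 1.07 and 0.627 CPM in WT and 12.2, 9.74 and 5.95 CPM in KO replicates 1 to 3, a 9.16-fold rise (3.20 ± 0.19, adjusted p = 3.27e-06), with every KO library above every WT library. *Scara5*, a scavenger receptor that takes up ferritin, rose from 19, 19.5 and 4.23 to 85.6, 95 and 24.8 CPM (2.31 ± 0.16, adjusted p = 5.90e-06). Its level in replicate 3 was lower in both genotypes, but the ranges of the groups did not overlap. *Pdzrn3*, an E3 ubiquitin ligase with PDZ domains, rose from 4.71, 4.32 and 2.65 to 15.8, 16.2 and 13.2 CPM (1.98 ± 0.15, adjusted p = 1.46e-05).

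**Figure D2:**
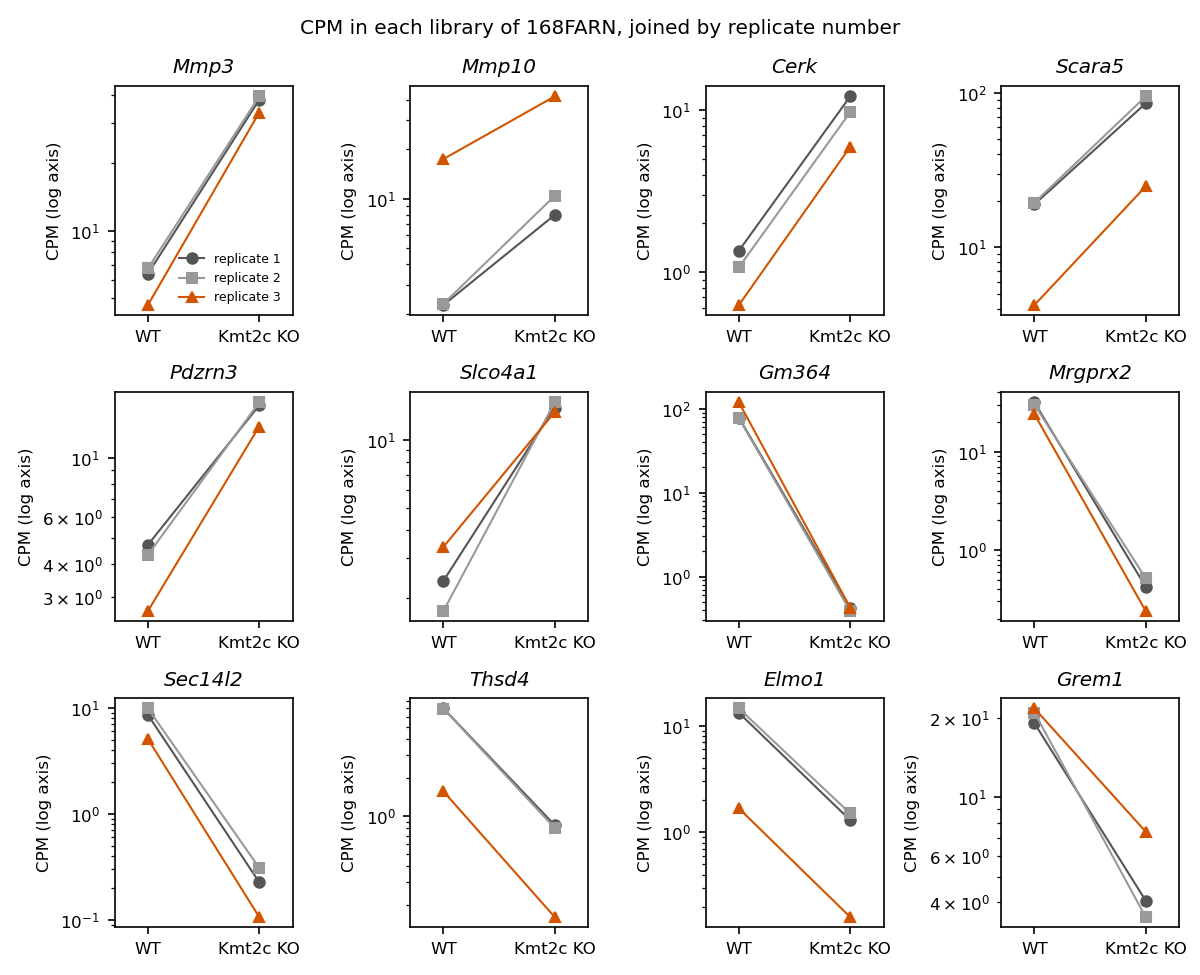
CPM of 12 genes in each library of 168FARN, on log axes with a range of their own, with lines joining WT and *Kmt2c* KO libraries of the same replicate number. All 3 lines run the same way in each panel, and the offset of replicate 3 (orange) is shared by both genotypes in genes such as *Scara5*, *Mmp10* and *Elmo1*.

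Other genes with the smallest p-values among those higher in KO cells have varied roles. *Slco4a1*, an organic anion transporter, rose from 2.39, 1.76 and 3.37 to 13.9, 14.6 and 13.2 CPM (2.49 ± 0.20, adjusted p = 1.97e-05), and *Pitpnc1*, a phosphatidylinositol transfer protein, from 4.14, 4.79 and 1.05 to 21.6, 20.5 and 6.51 CPM (2.34 ± 0.16, adjusted p = 6.29e-06). *Sapcd1* (2.55 ± 0.19, adjusted p = 1.22e-05), *Adamtsl3*, an ADAMTS-like matrix glycoprotein (1.51 ± 0.12, adjusted p = 1.48e-05), and *Adgra2*, an adhesion GPCR that acts with the Wnt7 co-receptor RECK (1.37 ± 0.11, adjusted p = 1.48e-05), also rose. *Adamtsl3* was the most abundant of these, at 50.1, 51.8 and 15.4 CPM in WT and 132, 130.2 and 54.2 CPM in KO replicates 1 to 3.

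Among the called genes, 89 fell and 70 rose by more than 2 on the log2 scale. Of these, 4 genes fell from a mean over 5 CPM to under 0.5 CPM, and 0 genes made the reverse change. *Gm364* was at 78.2, 76.7 and 119 CPM in WT and 0.423, 0.389 and 0.427 CPM in KO replicates 1 to 3, a 222-fold fall, with 2358 to 5112 counts against 13 to 16 per library (-7.79 ± 0.21, adjusted p = 1.42e-09). *Mrgprx2*, a Mas-related G-protein-coupled receptor, went from 31.7, 30.01 and 24 to 0.423, 0.518 and 0.24 CPM (-6.16 ± 0.19, adjusted p = 2.45e-09). *Sec14l2*, a tocopherol-binding lipid transfer protein, went from 8.58, 9.89 and 5.09 to 0.228, 0.311 and 0.107 CPM (-5.16 ± 0.32, adjusted p = 3.45e-06). *Plpp6*, a phospholipid phosphatase, was at 6.73, 5.3 and 3.35 CPM in WT and had no counts in any KO library, so that it was at least 60.2-fold lower against a floor of 3 counts per library (edgeR adjusted p = 1.68e-05). The WT and KO libraries were far apart for all 4 genes, replicate 3 included. *Gm364* lies at chromosome X from 54662331 to 54741944, *Mrgprx2* at chromosome 7 from 55733989 to 55754640 and *Sec14l2* at chromosome 11 from 3997042 to 4023418 of mm9.

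The other leading losses were smaller in fold but as even across the pairs. *Elmo1*, an engulfment and motility adaptor that activates Rac, was at 13.2, 14.6 and 1.67 CPM in WT and 1.3, 1.5 and 0.16 CPM in KO replicates 1 to 3 (-3.31 ± 0.21, adjusted p = 3.57e-06), so that the fold was similar although replicate 3 held far less transcript. *Chn1*, a Rac GTPase-activating protein, fell from 15, 16.3 and 8.94 to 3.84, 3.83 and 2.11 CPM (-2.04 ± 0.14, adjusted p = 6.11e-06). *Thsd4*, a thrombospondin-repeat protein linked to fibrillin microfibrils, fell from 6.99, 6.97 and 1.56 to 0.845, 0.803 and 0.16 CPM (-3.09 ± 0.19, adjusted p = 3.45e-06). *1700007G11Rik* (-2.13 ± 0.13, adjusted p = 3.45e-06), *Pex5l*, a regulator of HCN channels (-2.94 ± 0.23, adjusted p = 1.54e-05), and *Dtna*, the dystrophin-associated α-dystrobrevin (-1.41 ± 0.11, adjusted p = 1.99e-05), also fell.

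Among abundant genes the changes were modest, and several depended on the replicate. The 5 most abundant genes that were called higher and moved alike in all pairs were *Rpl36a*, *Ank*, *Ifitm3*, *Igfbp4* and *Ptgs1*. *Rpl36a*, a large-subunit ribosomal protein, was at 732, 669.7 and 409.6 CPM in WT and 1608, 1579 and 566 CPM in KO cells (0.93 ± 0.16, adjusted p = 0.00452). *Ank*, a pyrophosphate transporter (0.61 ± 0.12, adjusted p = 0.00699), had a log2 fold change of 0.52 without WT replicate 3 and 0.55 without KO replicate 3, under the threshold on the fold. *Ifitm3*, an antiviral membrane protein (0.81 ± 0.18, adjusted p = 0.015), lost its call without KO replicate 2 (adjusted p = 0.106). *Igfbp4*, a binding protein for insulin-like growth factors (0.66 ± 0.17, adjusted p = 0.0269), lost its call when replicate 1 or 2 of either genotype was left out (adjusted p from 0.119 to 0.16). *Ptgs1*, cyclooxygenase-1, rose from 316, 317 and 132 to 567, 583 and 262 CPM (0.90 ± 0.15, adjusted p = 0.00407) and by a similar fold in each pair.

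The 5 most abundant genes called lower in all pairs were *Ddx3x*, *Gja1*, *Gadd45a*, *Aldh1l2* and *Pgam1*. *Aldh1l2*, a mitochondrial folate enzyme, fell from 435, 456 and 173 to 277, 277 and 74.3 CPM (-0.87 ± 0.13, adjusted p = 0.00189). *Gadd45a*, a stress-response gene, went from 589.7, 552 and 81 to 289.9, 356 and 32.7 CPM (-1.004 ± 0.22, adjusted p = 0.0169), with the call lost without KO replicate 1 (adjusted p = 0.131). *Gja1*, connexin 43 (-0.76 ± 0.16, adjusted p = 0.0123), and *Pgam1*, a glycolytic mutase (-0.65 ± 0.14, adjusted p = 0.014), lost theirs without WT replicate 1 (log2 fold change -0.53 and -0.48), and *Ddx3x*, an RNA helicase (-0.70 ± 0.17, adjusted p = 0.0213), without any of replicates 1 and 2 of either genotype (adjusted p from 0.122 to 0.155).

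Guidance and contact signalling genes were the group with the most members that rose and none that fell. Of 38 tested semaphorins, plexins, neuropilins, ephrins, Eph receptors, netrins and related genes, 11 were called higher and 0 lower, against 7.23% of all genes called in either direction, and their median log2 fold change was 0.32. *Sema7a*, a membrane-anchored semaphorin that binds integrins, rose from 14.9, 18 and 24.9 to 53, 50.5 and 100.2 CPM (1.77 ± 0.14, adjusted p = 1.97e-05), with no overlap between the groups. *Sema6a* rose from 2.09, 2.5 and 1.97 to 11.9, 9.09 and 10.5 CPM (2.26 ± 0.19, adjusted p = 2.05e-05) and *Sema6d* from 8.25, 7.06 and 3.37 to 26.6, 19.7 and 21.9 CPM (1.94 ± 0.20, adjusted p = 0.000123), both transmembrane ligands of plexins. *Ephb3*, a receptor for B-type ephrins, rose more weakly (0.94 ± 0.17, adjusted p = 0.00459). The 2 most abundant members were not called, with log2 fold changes of 0.11 ± 0.11 for *Sema5a* and 0.09 ± 0.13 for *Nrp2*.

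Matrix genes changed in both directions. Over all tested genes 3.66% were called higher and 3.57% lower. Of 32 tested matricellular proteins and proteoglycans, 8 were called higher and 2 lower. *Bgn*, the small leucine-rich proteoglycan biglycan, rose from 1.69, 2.77 and 1.9 to 19.998, 14.9 and 5.5 CPM (2.50 ± 0.30, adjusted p = 0.000474), and *Sdc3*, a cell-surface heparan sulphate proteoglycan, from 34.8, 39.2 and 29.97 to 135, 138 and 73.6 CPM (1.70 ± 0.14, adjusted p = 2.25e-05). *Ogn*, another small leucine-rich proteoglycan, fell from 14.9, 16.3 and 11.4 to 4.32, 3.42 and 1.17 CPM (-2.42 ± 0.27, adjusted p = 0.000238). The very abundant *Spp1* (0.18 ± 0.13, adjusted p = 0.405) and *Fn1* (0.30 ± 0.13, adjusted p = 0.148) were not called. Of 18 tested collagens, 3 were higher and 2 lower. The fibrillar chains *Col3a1* (1.99, 1.88 and 2.65 CPM in WT and 0.228, 0.415 and 0.32 CPM in KO cells, -2.72 ± 0.32, adjusted p = 0.000262) and *Col5a2* (-1.43 ± 0.14, adjusted p = 8.03e-05) fell in all pairs. *Col6a1*, a microfibrillar collagen chain, rose (1.47 ± 0.21, adjusted p = 0.00237), from 18.8, 26.2 and 6.27 to 76.9, 73.9 and 10.5 CPM, and less in replicate 3 than in the other pairs. *Col6a2* went from 2.42, 2.89 and 1.53 to 9.98, 8.11 and 1.2 CPM, with KO below WT in replicate 3, and its call (1.19 ± 0.37, adjusted p = 0.0662) was lost without any of replicates 1 and 2 of either genotype (adjusted p from 0.262 to 0.383).

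Beside the 7.23% of all tested genes called, proteases and adhesion receptors beyond the cluster gave a mixed picture. *Plau*, the urokinase-type plasminogen activator, rose from 1.92, 1.13 and 5.88 to 5.01, 7.2 and 29.5 CPM (2.14 ± 0.25, adjusted p = 0.000249), with its largest values in replicate 3. *Adamts9* (1.54 ± 0.28, adjusted p = 0.0049) and *Adamts7* (0.78 ± 0.14, adjusted p = 0.0045), secreted matrix proteases, rose, and the gelatinase *Mmp9* fell from 7.46, 9.11 and 0.72 to 2.41, 3.37 and 0.267 CPM (-1.48 ± 0.25, adjusted p = 0.00409). *Adamts9*, *Adamts7* and *Mmp9* were the members called among 23 other matrix proteases and inhibitors. Of 20 tested integrins and laminins, *Itga6*, the laminin-binding α6 subunit, rose from 19.1, 18.5 and 21.4 to 38.3, 43 and 37.2 CPM (1.01 ± 0.12, adjusted p = 0.000255) and *Itga10* rose (0.97 ± 0.12, adjusted p = 0.000452). *Itgb1*, the most abundant integrin, was not called (0.03 ± 0.15, adjusted p = 0.927).

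Genes of secreted signals and of the NF-κB pathway included calls in both directions. Of 34 tested chemokines and cytokines, 8 were called higher and 0 lower, against 3.66% and 3.57% of all tested genes, with a median log2 fold change of 0.33. *Vegfc*, a lymphangiogenic growth factor, was at 0.265, 0.387 and 0.0697 CPM in WT and 2.93, 2.82 and 1.09 CPM in KO replicates 1 to 3 (3.28 ± 0.41, adjusted p = 0.000423). *Tslp*, an epithelial alarmin, stayed low but rose from 0.895, 0.268 and 0.163 to 3.84, 3.83 and 0.934 CPM (2.73 ± 0.50, adjusted p = 0.00586). *Il11*, a cytokine of the IL-6 family, rose from 14.9, 15.1 and 8.15 to 35.3, 36 and 26.7 CPM (1.40 ± 0.13, adjusted p = 4.65e-05), with all KO libraries above all WT libraries. *Lcn2*, an iron-sequestering lipocalin, rose from 2.95, 2.05 and 0.325 to 15.6, 14.3 and 1.07 CPM (2.44 ± 0.26, adjusted p = 0.000167), and *Traf1*, a signalling adaptor of TNF receptors, fell from 14.6, 17 and 4.58 to 5.43, 4.53 and 0.427 CPM (-2.01 ± 0.27, adjusted p = 0.000937). Of 23 tested NF-κB pathway and feedback genes, 2 were higher and 1 lower, and *Ptgs2*, the most abundant, was not called (0.11 ± 0.15, adjusted p = 0.687). *Il1rl1*, the receptor for IL-33, fell from 6.33, 6.04 and 20.4 to 1.07, 1.14 and 2.75 CPM (-2.65 ± 0.24, adjusted p = 4.65e-05).

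Single members of the Notch, Wnt and BMP pathways changed, beside 3.66% of all tested genes called higher and 3.57% lower. *Dll1*, a Notch ligand, rose from 5.3, 4.35 and 2.11 to 20.1, 18.1 and 9.63 CPM (2.04 ± 0.21, adjusted p = 9.61e-05) and *Notch1*, its receptor, from 9.45, 13.1 and 5.62 to 19.8, 19 and 13 CPM (0.92 ± 0.17, adjusted p = 0.00506). In all, 3 of 21 tested Notch genes were higher and 1 lower. *Notum*, a secreted deacylase that inactivates Wnt proteins, rose from 6.73, 6.76 and 1.9 to 24.5, 23.7 and 6.94 CPM (1.84 ± 0.17, adjusted p = 4.65e-05), and *Dkk2*, a secreted Wnt co-receptor ligand, also rose (1.36 ± 0.21, adjusted p = 0.00231), with 2 of 27 Wnt genes higher and 1 lower. *Grem1*, a secreted BMP antagonist, fell from 19.1, 20.9 and 21.7 to 4.06, 3.52 and 7.42 CPM (-2.11 ± 0.19, adjusted p = 4.65e-05), and *Bambi*, a pseudoreceptor that inhibits TGF-β signalling, rose from 5.8, 5.66 and 5.11 to 13.6, 16.1 and 7.02 CPM (1.08 ± 0.19, adjusted p = 0.0042). *Ltbp2*, a latent TGF-β binding protein family member, rose (0.91 ± 0.14, adjusted p = 0.00211). Of the 39 TGF-β and BMP genes tested, 3 were higher and 2 lower.

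Growth factors and their receptors included single large changes. *Ptk7*, a pseudokinase of planar cell polarity, fell from 13.1, 14.4 and 7.25 to 3.84, 5.21 and 1.68 CPM (-1.77 ± 0.20, adjusted p = 0.000199), and *Ror1*, a receptor for Wnt5a, rose from 0.497, 0.387 and 0.558 to 1.07, 1.17 and 2.83 CPM (1.74 ± 0.38, adjusted p = 0.0136). *Fgf10*, a mesenchymal ligand in mammary development, rose from 89.4, 75.8 and 31.1 to 160.1, 168 and 53 CPM (0.92 ± 0.11, adjusted p = 0.000264), and the imprinted growth factor *Igf2* fell from 141, 168 and 63.1 to 81.2, 74.9 and 12.2 CPM (-1.40 ± 0.26, adjusted p = 0.0127), most steeply in replicate 3. Of the 19 tested ligands and binding proteins of this group, 4 were higher and 2 lower, against 3.66% and 3.57% of all tested genes.

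Several regulators of mammary lineage rose. Of 19 tested lineage factors and hormone receptors, 5 were called higher and 1 lower (3.66% and 3.57% over all tested genes), and the median log2 fold change was 0.21. *Tbx3*, a T-box factor of mammary placode formation, rose from 20.1, 21 and 21.6 to 44.3, 46.4 and 38.6 CPM (1.04 ± 0.12, adjusted p = 0.000201). *Gata3*, the luminal transcription factor, rose from 58.9, 51.6 and 21.6 to 108, 102 and 34.7 CPM (0.85 ± 0.10, adjusted p = 0.000281), and *Ghr*, the growth hormone receptor, from 82.3, 77.7 and 123 to 114, 128 and 261 CPM (0.75 ± 0.13, adjusted p = 0.00385). *Esr1*, oestrogen receptor α, went from 6.93, 5.78 and 2.95 to 2.89, 3.76 and 1.87 CPM (-0.84 ± 0.22, adjusted p = 0.0333), with the call lost without WT replicate 1 (adjusted p = 0.239), WT replicate 2 (adjusted p = 0.118) or KO replicate 1 (adjusted p = 0.204). Of the 17 tested mesenchymal markers, *Twist2*, a basic helix-loop-helix factor, rose from 18.3, 17.3 and 14.1 to 33, 32.6 and 22.9 CPM (0.82 ± 0.12, adjusted p = 0.00134), *Col3a1* fell as above, and *Vim* was not called (0.39 ± 0.12, adjusted p = 0.0683).

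Of the 7 tested endothelial markers, 3 were called higher and 1 lower in KO cells, against 3.66% and 3.57% of all tested genes. *Cdh5*, VE-cadherin, was at 0.497, 0.655 and 1.12 CPM in WT and 4.68, 4.82 and 4.46 CPM in KO replicates 1 to 3 (2.64 ± 0.30, adjusted p = 0.000218), *Clec14a* rose from 2.32, 1.55 and 1.49 to 6.15, 6.3 and 5.52 CPM (1.76 ± 0.24, adjusted p = 0.000797), and *Cd34* from 194, 185 and 196 to 286, 302 and 336 CPM (0.68 ± 0.12, adjusted p = 0.00377), with a log2 fold change of 0.60 without WT replicate 3, just under the threshold. *Eng*, the TGF-β co-receptor endoglin, fell from 5.27, 7.15 and 1.95 to 2.5, 3.14 and 2.05 CPM (-0.79 ± 0.28, adjusted p = 0.092), with KO slightly above WT in replicate 3, and the call was lost without any of replicates 1 and 2 of either genotype (adjusted p from 0.291 to 0.428). The other 3 tested markers were not called. Of the 20 markers 5 had 0 counts in all 6 libraries, *Kdr* and *Emcn* among them, and *Pecam1* stayed at or under 0.23 CPM. The 20 endothelial markers summed to 206 to 213 CPM in WT and 311 to 353 CPM in KO cells, most of it *Cd34*.

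Single genes of lipid, iron and redox handling changed, beside 3.66% of all tested genes called higher and 3.57% lower. In the sphingolipid list, *Spns2*, the sphingosine-1-phosphate exporter, rose with *Cerk*, from 0.497, 0.387 and 0.697 to 1.85, 1.43 and 2.35 CPM (1.83 ± 0.30, adjusted p = 0.00333), and 3 of 30 tested members were higher and 0 lower. *Stab1*, a scavenger receptor, rose from 1.29, 1.73 and 0.441 to 5.95, 3.78 and 4.88 CPM (2.14 ± 0.38, adjusted p = 0.00503), and *Hfe*, a regulator of iron uptake, fell (-1.25 ± 0.28, adjusted p = 0.0146). Of 41 tested glutathione and antioxidant genes, 3 were higher and 5 lower, among them *Sod3*, the extracellular superoxide dismutase, which rose from 10.4, 9.29 and 9.85 to 31, 30.3 and 16.4 CPM (1.37 ± 0.26, adjusted p = 0.011), and *Gsta1*, a glutathione transferase, which fell from 1.59, 1.76 and 0.558 to 0.26, 0.181 and 0.080 CPM (-2.86 ± 0.49, adjusted p = 0.00419). *Pdk1*, the kinase that restrains pyruvate dehydrogenase, fell from 17.9, 16.3 and 66.6 to 10.5, 9.17 and 26.6 CPM (-0.98 ± 0.16, adjusted p = 0.00321), and *Pfkfb3*, an activator of glycolysis, rose (1.07 ± 0.22, adjusted p = 0.0112). *P2rx7*, an ATP-gated channel, rose from 11.1, 13.6 and 7.69 to 57.5, 55.7 and 29.2 CPM (2.12 ± 0.17, adjusted p = 1.99e-05), and *Kcnma1*, a large-conductance potassium channel, fell from 10.01, 8.93 and 1.67 to 3.48, 3.5 and 0.133 CPM (-1.81 ± 0.33, adjusted p = 0.0058).

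Beside the 7.23% of all tested genes called, counts in chromatin and cell cycle lists ran from 0 to near that share. Of the 31 tested Polycomb subunits, 0 were called in edgeR (6 at an unadjusted p under 0.05, 0 in DESeq2), with log2 fold changes from -0.49 to 0.38, and of 42 DNA replication and repair genes 0 were called (15 at an unadjusted p under 0.05, 0 in DESeq2). Of 38 mitotic genes 1 was called, and 36 had a log2 fold change above 0. Of 43 other histone and DNA modifiers, 3 were lower (6.98%), among them *Hdac9*, a class II histone deacetylase, which fell from 8.02, 5.57 and 3.3 to 3.32, 2.38 and 1.84 CPM (-1.12 ± 0.19, adjusted p = 0.00437), and *Tet2*, a 5-methylcytosine dioxygenase, which fell from 4.97, 3.57 and 1.86 to 2.21, 1.5 and 0.747 CPM (-1.22 ± 0.26, adjusted p = 0.0119) with an adjusted p of 0.104 without WT replicate 1. The count was also 0 for 24 ER stress chaperones (6 at an unadjusted p under 0.05, 0 in DESeq2) and 11 collagen cross-linking enzymes (6 at an unadjusted p under 0.05, 0 in DESeq2). Of 50 listed interferon-stimulated genes, 2 were higher and 2 lower, a share near that of all tested genes. Among them were *Sp100*, a nuclear body protein, rising (1.25 ± 0.20, adjusted p = 0.00233) and *Gbp4*, a guanylate-binding protein, falling (-1.23 ± 0.27, adjusted p = 0.014). *Ifitm3*, described above as called higher, was not on this list.

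**Figure D3:**
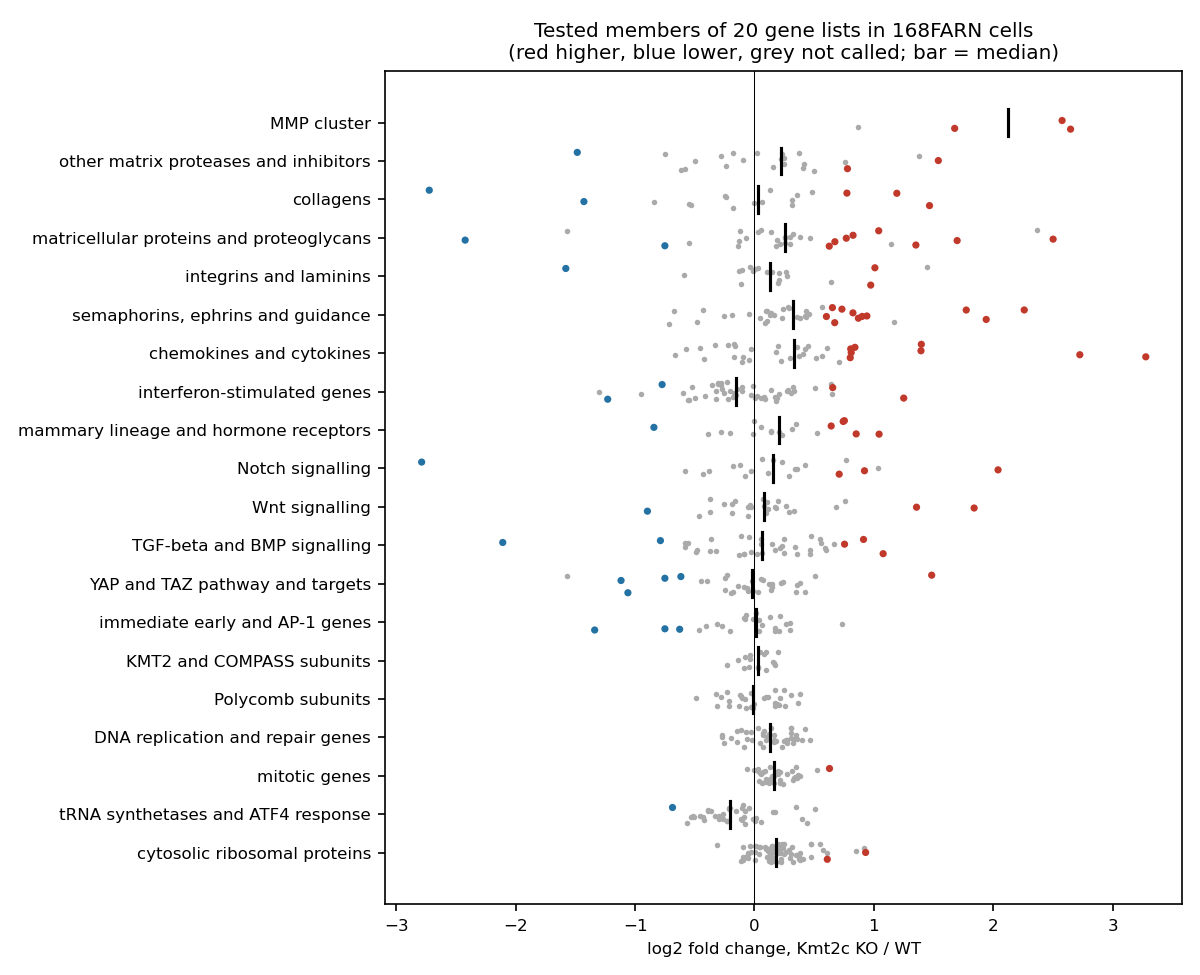
Log2 fold changes of *Kmt2c* KO over WT for the tested members of 20 gene lists in 168FARN cells, with 1 point per gene (vertical position within a row is random), members called higher in red and lower in blue, others in grey, and a bar at the median. Guidance genes and cytokines hold only red called members, whereas COMPASS, Polycomb and DNA replication genes hold none.

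The knockout effect was not the same in all replicate pairs. Replicate 3 had 1 library per genotype, so the p-values of the test below rest on the spread between replicates 1 and 2. They do not measure whether another collection like replicate 3 would give the same effect. That test also uses the libraries behind the 886 calls, so its overlap with them is not independent. A test of the difference between the effect in replicate 3 and that in replicates 1 and 2 called 1692 genes (13.8%), 652 with a higher and 1040 with a lower value in replicate 3. Among the 886 genes called for the knockout, 164 were in that set, and 24 of those higher and 4 of those lower moved the other way in pair 3. Median differences of the genes called higher were 0.94, 0.93 and 0.62 on the log2(CPM + 0.5) scale in pairs 1 to 3, and of those called lower -0.96, -0.88 and -0.73. With 1 pair left out at a time, 292 genes, 159 higher and 133 lower, were called in all 3 reduced fits. Without replicate 3, 1814 genes were called, of which 820 were among the 886.

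**Figure D4:**
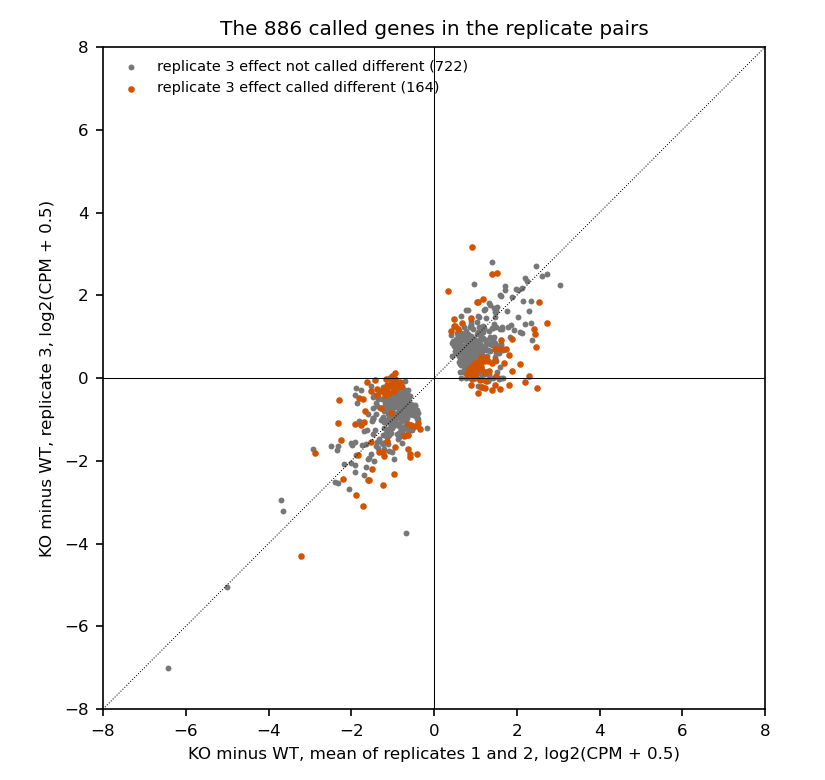
Difference between *Kmt2c* KO and WT on the log2(CPM + 0.5) scale for the 886 called genes, with the mean of replicates 1 and 2 on the x axis, replicate 3 on the y axis and a dotted line where the values are equal. Orange points are the 164 genes whose effect in replicate 3 was called different, and 24 genes called higher and 4 called lower have the opposite sign in replicate 3.

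Many genes of protein synthesis and respiration differed between the pairs. Of 78 tested cytosolic ribosomal protein genes, 46 were lower in the replicate 3 effect and 0 higher, and of 80 oxidative phosphorylation subunits 44 were lower and 0 higher, beside 13.8% of all genes. The median difference of the ribosomal protein genes was 0.42 and 0.50 in pairs 1 and 2 and -0.33 in pair 3, and that of the respiratory subunits 0.31, 0.39 and -0.28. *Rpl23* was at 3617, 3364 and 2246 CPM in WT and 5839, 5781 and 1562 CPM in KO replicates 1 to 3, and *Rps24* at 3874, 3384 and 2725 and 6445, 5724 and 1971 CPM. Both were above WT in the first pairs and below it in pair 3 (difference of effects -1.26 ± 0.17, adjusted p = 1.65e-05 and -1.21 ± 0.17, adjusted p = 1.28e-05). *Rpl35a* was called higher (0.61 ± 0.18, adjusted p = 0.0508), but not when replicate 1 or 2 of either genotype was left out (adjusted p from 0.239 to 0.257). Many ribosomal protein genes have processed pseudogenes, so their counts are uncertain.

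Targets of YAP and TAZ, the effectors of the Hippo pathway, included genes with the opposite pattern. Of 33 tested genes of that pathway, 9 had a higher and 2 a lower effect in replicate 3, beside 13.8% of all genes. *Ankrd1* was at 40.2, 41.3 and 124 CPM in WT and 12.8, 15.1 and 100.4 CPM in KO cells (-1.12 ± 0.21, adjusted p = 0.011), and *Cyr61*, a matricellular target, at 237, 212 and 265 and 102, 113 and 237 CPM (-0.75 ± 0.17, adjusted p = 0.0164). KO values lay far below WT in pairs 1 and 2 and slightly below in pair 3. The difference of effects was 1.24 ± 0.19, adjusted p = 4.27e-05 for *Ankrd1* and 0.90 ± 0.18, adjusted p = 0.0014 for *Cyr61*. The *Cyr61* call was lost without WT replicate 1 (adjusted p = 0.117), KO replicate 1 (log2 fold change -0.54) or KO replicate 2 (adjusted p = 0.116).

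**Figure D5:**
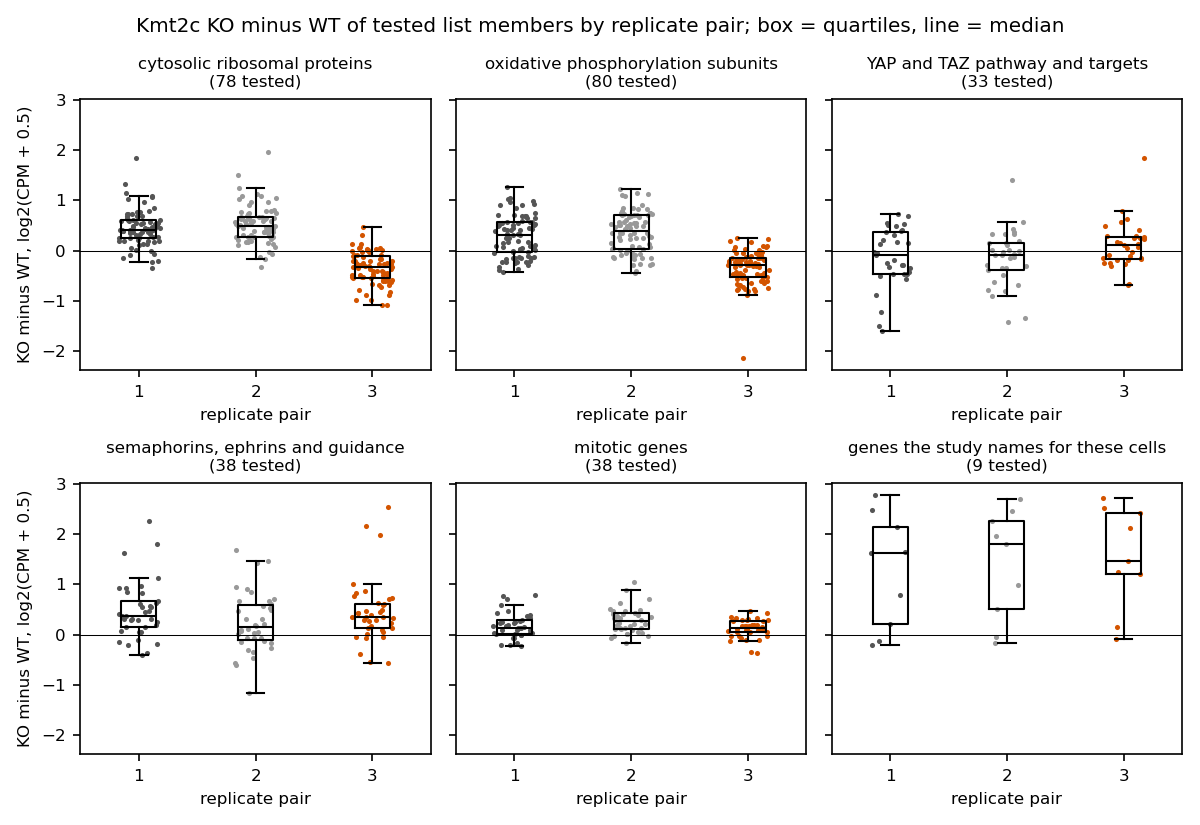
Difference between *Kmt2c* KO and WT on the log2(CPM + 0.5) scale in replicate pairs 1 to 3 for the tested members of 6 gene lists, with 1 point per gene, boxes at the quartiles, lines at the medians and whiskers to the outermost points near the box. Ribosomal protein and oxidative phosphorylation genes lie mostly above 0 in pairs 1 and 2 and below 0 in pair 3, whereas the genes the study names have similar medians in all pairs.

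Part of the response set *Kmt2c* KO apart from *Kmt2d* KO cells of the same line. In the direct contrast of the knockouts 653 genes passed (5.33%), 354 with more and 299 with less transcript after loss of *Kmt2c*, and 287 of the 886 genes called against WT were among them. The contrast uses the same *Kmt2c* KO libraries as those calls, so this overlap is not independent of them. *Gm364* was at 61.8, 47.3 and 117 CPM and *Mrgprx2* at 43.9, 34.3 and 31.6 CPM in *Kmt2d* KO replicates 1 to 3, near their WT levels, with log2 differences between the knockouts of -7.45 ± 0.21, adjusted p = 8.89e-10 and -6.52 ± 0.19, adjusted p = 8.89e-10. *Plpp6* was at 2.38, 4.31 and 1.78 CPM there. *Pitpnc1* (2.29 ± 0.17, adjusted p = 1.69e-05), *Cdh5* (3.57 ± 0.35, adjusted p = 0.000105) and *Vegfc* (4.25 ± 0.50, adjusted p = 0.00043) were higher in *Kmt2c* than in *Kmt2d* KO cells. *Ptk7* was also higher in *Kmt2c* KO cells (3.60 ± 0.31, adjusted p = 5.30e-05), although it had fallen there against WT, and its level in *Kmt2d* KO cells was 0.346, 0.495 and 0.074 CPM. Of the 50 interferon-stimulated genes, 26 were higher and 0 lower in *Kmt2c* than in *Kmt2d* KO cells. Against WT, only 2 of them were called higher and 2 lower in *Kmt2c* KO cells, with a median log2 fold change of -0.15. The contrast is therefore not a rise of the list after loss of *Kmt2c*.

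Other genes did not pass that contrast. *Cerk* was at 14.8, 13.5 and 5.89 CPM in *Kmt2d* KO replicates 1 to 3, above WT as in *Kmt2c* KO cells (log2 difference between the knockouts -0.25 ± 0.16, adjusted p = 0.38). *Scara5* was at 105, 104 and 41.3 CPM (-0.39 ± 0.15, adjusted p = 0.139). *P2rx7* was at 52.9, 53.6 and 49.6 CPM (-0.20 ± 0.16, adjusted p = 0.506). Among the genes that fell, *Elmo1* was at 1.52, 1.41 and 0.185 CPM (-0.09 ± 0.26, adjusted p = 0.863) and *Sec14l2* at 0.346, 0.424 and 0.481 CPM (-1.05 ± 0.44, adjusted p = 0.186), both below WT in the *Kmt2d* KO cells as well. *Mmp3* was at 20.4, 34 and 25.6 CPM there, and its log2 difference of 0.49 ± 0.15, adjusted p = 0.0756 was under the threshold on the fold. Both knockouts share the WT libraries, so their changes against WT are not independent.

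Between the lines, knockout of *Kmt2c* changed many genes differently. Per the study, the share of mutant *Kmt2c* reads was lower in 67NR than in 168FARN cells. Each line had a single KO pool, so a difference between lines cannot be told apart from one between pools or in editing. The test of the line-by-genotype interaction on 18 libraries called 4805 of 13882 genes (34.6%), and 558 of the 886 genes called in 168FARN were among them. The interaction uses the same 168FARN libraries as those calls, so this overlap is not independent of them. *Mmp3* rose in both lines, with a log2 fold change of 2.18 ± 0.21 in 67NR and an interaction that did not pass (0.46 ± 0.29, adjusted p = 0.231). *Cerk* (-2.37 ± 0.18 in 67NR), *Pdzrn3* (-1.88 ± 0.33) and *Scara5* (-0.87 ± 0.22) had the opposite sign in 67NR, and their interactions passed (5.57 ± 0.27, adjusted p = 7.41e-11 for *Cerk*, 3.86 ± 0.48, adjusted p = 2.90e-05 for *Pdzrn3* and 3.19 ± 0.29, adjusted p = 2.27e-07 for *Scara5*). *Gm364* (2.21 ± 0.26 in 67NR) and *Mrgprx2* (6.05 ± 0.25), almost lost in 168FARN KO cells, were higher in 67NR KO cells than in their WT (interaction -9.996 ± 0.35, adjusted p = 4.22e-12 and -12.22 ± 0.36, adjusted p = 1.03e-12). *Mmp10* rose in both lines but more in 67NR (3.84 ± 0.31, interaction -2.15 ± 0.41, adjusted p = 0.000839). *Thsd4* fell in both (-3.44 ± 0.21 in 67NR), and its interaction did not pass (0.34 ± 0.34, adjusted p = 0.477).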

How the data were processed

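mRNA was sequenced from 168FARN and 67NR cells of 3 genotypes each. Stranded libraries were aligned with STAR to mm9 within VIPER by the authors, who deposited raw counts per gene symbol. Whether counting used strand is not given in the sources used here, so overlapping genes are uncertain. Counts were analysed with edgeR 4.0.16 in R 4.3.3 (TMM, filter on low counts by genotype, robust quasi-likelihood test), with the 9 libraries of 168FARN, genotype and the replicate number as a block. DESeq2 1.42.0 served as an alternative. The SE is the log2 fold change over the square root of F. CPM use TMM-scaled library sizes.

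Deviations from group means correlated between same numbers of different genotypes at 0.65 to 0.74 for replicates 1 and 2 and 0.86 to 0.90 for replicate 3. Between replicate 1 of one genotype and replicate 2 of another the values were 0.62 to 0.73. Deviations within a group cancel out, so the offset of replicate 3 alone makes replicates 1 and 2 correlate. The values set replicate 3 apart in every genotype and do not show that replicates 1 and 2 are paired by number. The common biological coefficient of variation was 0.130 with and 0.412 without the block.

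The comparisons, gene lists and the rule for naming genes were chosen with earlier results of these data known. The rule takes genes the study names, the 10 higher and 10 lower with the smallest p and all pairs moving alike, the 5 of each with the highest CPM, the strongest and most abundant members of 55 lists written from general knowledge, and genes near 0 in 1 genotype. Within it the genes described in each list were selected after their values were seen. Promoter sequences are from RefSeq. Results for some genes are not reported here.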

Additional observations from a re-analysis of the deposited data

Results flagged for a closer look

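The test between replicate pairs called 1692 genes, and the test between lines 4805. Values below are the knockout effect in replicate 3 minus that in replicates 1 and 2, on the log2 scale, for genes described above that passed that test.

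Effects were lower in replicate 3 for *Mmp1b* (-4.99, which has no counts in 2 WT libraries), *Slco4a1* (-0.82), *Rpl36a* (-0.72), *Ifitm3* (-0.65), *Rpl35a* (-0.94), *Igfbp4* (-0.85), *Col6a1* (-1.01), *Col6a2* (-2.12), *Bgn* (-1.43), *Ogn* (-1.26), *Traf1* (-1.74), *Igf2* (-1.40), *Bambi* (-0.92), *Sod3* (-0.90), *Kcnma1* (-2.17), *Rpl23* (-1.26) and *Rps24* (-1.21). They were higher for *Mmp13* (1.45), *Ddx3x* (0.87), *Gja1* (0.65), *Itgb1* (0.72), *Sema6d* (1.11), *Grem1* (0.85), *Stab1* (1.80), *Gbp4* (1.06), *Eng* (1.21), *Cyr61* (0.90) and *Ankrd1* (1.24).

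Groups of 3 libraries were not tested for outlying samples.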

How the results depend on the processing

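The count of 886 genes called between *Kmt2c* KO and WT cells became 44 without the replicate block, 553 to 1551 with 1 library left out, and 386, 406 and 1814 without replicate 1, 2 or 3. WT replicate 3 (1551) and KO replicate 3 (1490) gave the highest counts and WT replicate 1 (553), KO replicate 2 (559) and KO replicate 1 (566) the lowest. DESeq2 with the block called 904 genes, 832 of them among the 886, and DESeq2's size factors (884), no filter (902), the 6 libraries alone (705), no robust estimates (895), *Rn45s* left out (883), total counts (972) and an adjusted p under 0.05 with no fold threshold (1308) stayed within 1.5 times. The 653 genes of the contrast with *Kmt2d* KO became 31 without the block and 342 to 1015 with 1 library left out (429, 362 and 1015 without *Kmt2c* KO replicates 1, 2 and 3, 342 and 391 without *Kmt2d* KO replicates 1 and 2). The 4805 genes of the test between lines became 2226 without the block and 4417 to 5063 with 1 library left out. The 1692 genes of the test between replicate pairs became 1074 in DESeq2 and 985 to 1885 with 1 library left out, 985 without WT replicate 2. Of the 92 called genes described above, 20 kept their call without the block and 72 were no longer past the threshold, 74, 71 and 91 kept it without replicate 1, 2 or 3, 88 kept it with scaling by total counts, and 0 changed sign under any of 17 alternatives. The cause of these shifts was not tested. Among the 2138 genes over 100 CPM the SE of the log2 fold change had quartiles of 0.11 and 0.13, which limits the changes that could be detected, and a p that misses the threshold does not show an equal level.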
